A study of Caenorhabditis elegans with 2 samples.

Results

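The regions described here are candidate binding regions of the protein T26A5.8 whose summits lay beside tRNA genes of the Caenorhabditis elegans X chromosome. A region was a member when its summit fell from 200 bp before to 200 bp past an annotated tRNA gene, which gave 236 members of 30000 entries in the authors' list from both replicates pooled. The X chromosome held 5939 entries of that list, and 251 other entries lay beside autosomal tRNA genes. All values come from chromatin immunoprecipitation sequencing (ChIP-seq) of whole young adults of mixed sex, collected 63 h after synchronization of starved L1 larvae. The labels give 1 group, strain OP598, with the mutation unc-119(tm4063) and the integrated transgene wgIs598, which expresses T26A5.8 with a C-terminal eGFP-FLAG tag, and antibodies against GFP recovered the chromatin. That group had 2 biological replicates, numbered 3 and 4, and every worm carried the same transgene. The promoter and copy number of the transgene, and its level beside the untagged protein, are not given in the labels, and a whole worm gives a mean over all its cell types.

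tRNA genes are short genes transcribed by RNA polymerase III. Their promoter lies inside the gene, as an A box near the start and a B box towards the end, both read by the factor TFIIIC, which then places TFIIIB just upstream of the start, and a run of T ends transcription. RefSeq names T26A5.8 pole-3. In other species, human among them, POLE3 is a histone-fold subunit of DNA polymerase epsilon and of the CHRAC nucleosome remodelling complex.

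The sequences of 5 tRNA genes show what lies under the members, read from the WBcel235 genome in the direction of transcription and continued to the nearest run of T past the gene. Capitals mark the A box core where the letters GCNNAGNNG matched, the B box core GTTCNANNC, and the run of at least TTTT. The leucine gene carries the strongest member over a gene with no identical copy, the alanine genes share the member of 2nd highest signal, and the tyrosine and arginine genes are the shared sequences of sets of identical copies compared further on.
C04A11.t1 (Leu, X:13665555-13665673, plus strand): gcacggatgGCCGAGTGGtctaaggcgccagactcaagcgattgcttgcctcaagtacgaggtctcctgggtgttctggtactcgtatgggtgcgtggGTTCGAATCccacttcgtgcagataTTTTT
F15G9.t1 (Ala, X:9743589-9743660, plus strand): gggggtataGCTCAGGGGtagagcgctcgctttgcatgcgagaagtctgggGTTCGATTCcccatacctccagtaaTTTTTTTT
F15G9.t2 (Ala, X:9743747-9743818, plus strand): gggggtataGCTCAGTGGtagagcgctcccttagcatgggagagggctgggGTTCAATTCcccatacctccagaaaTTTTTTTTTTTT
C02B4.t2 (Tyr, X:12665228-12665311, plus strand): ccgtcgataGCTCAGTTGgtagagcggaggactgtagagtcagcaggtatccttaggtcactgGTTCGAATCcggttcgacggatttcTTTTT
C18A11.t2 (Arg, X:8036685-8036757, minus strand): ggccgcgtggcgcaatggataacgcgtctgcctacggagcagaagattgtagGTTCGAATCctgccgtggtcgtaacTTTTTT

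The members were among the strongest entries of the pooled list. Their signal, an enrichment value that the authors' peak caller wrote in units it does not name, had a median of 64.1 and ran from 19.6 to 205. The median was 55.5 beside autosomal tRNA genes and 26.5 over the other 5703 X chromosome entries. By rank, 127 members (53.8%) were among the 1000 strongest pooled entries, which are 3.33% of that list.

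Overlap with the authors' irreproducible discovery rate (IDR) thresholded list, which keeps regions ranked alike in the replicates, was counted from 1 shared bp. Of all pooled entries, 1.47% overlapped a thresholded region, and of the members 73 did (30.9%, exact 95% binomial interval 25.1 to 37.3). Beside autosomal tRNA genes 53 of 251 entries did (21.1%, 16.2 to 26.7), and away from tRNA genes 9 of 5703 X chromosome entries did (0.158%, 0.0722 to 0.299). The intervals of the X chromosome and autosomal tRNA sets overlap, and no test across samples can be made with 1 group. Requiring the summit to lie inside the thresholded region left 68 members (28.8%) against 1.23% of all pooled entries. Read from the other side, 67 of the 75 thresholded regions of the X chromosome had their summit beside a tRNA gene. All intervals given for shares are for numbers of regions or genes and take no account of read counts, and neighbouring regions or genes are not independent.

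**Figure D1:**
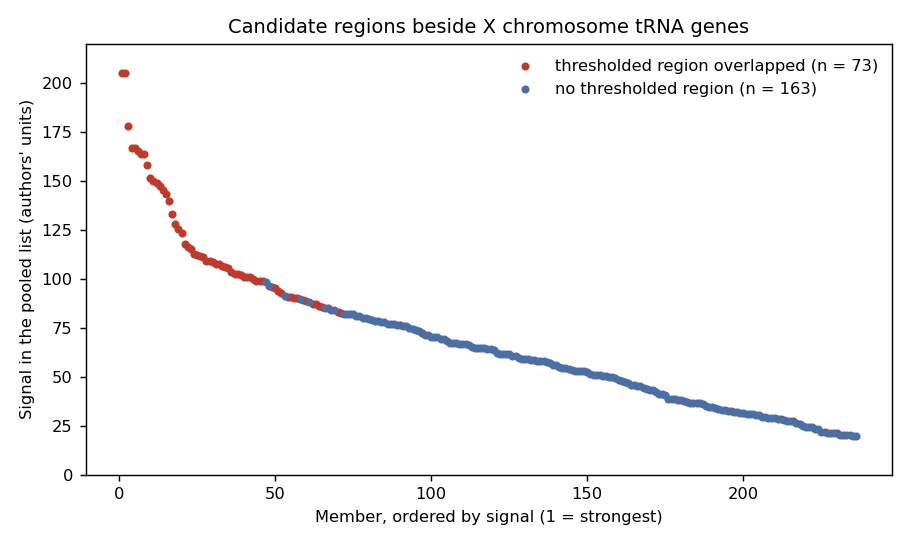
Signal of the 236 members in the pooled list (vertical axis, authors' units) against their order by signal (horizontal axis), coloured by overlap with a thresholded region. The highest signal is 205 and the highest without a thresholded region is 98.4, and a few thresholded members lie at the low end.

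The thresholded list was made from the same libraries as the signal, so a higher signal in thresholded members is no independent result. The 68 members with their summit in a thresholded region had a median signal of 106, and the 163 members without any overlap ran from 19.6 to 98.4 with a median of 52.9. The 5 strongest members without a thresholded region lay at the threonine gene F55G7.t1 (98.4), the arginine gene C03A3.t1 (96.4), the lysine gene F43C9.t1 (91.3), the alanine gene F18G5.t1 (89.8) and the threonine gene ZK563.t1 (88.3). All 5 overlapped a region of the list that the authors thresholded on the older build ce10. That list holds 609 regions against 369 on ce11, and its lowest signal is 73.9 against 87.7. Through it, 109 members (46.2%) were thresholded against 2.39% of all pooled entries, 71 of them also on ce11. The members at F38G1.t2 and F47E1.t1, thresholded on ce11, could not be matched to a ce10 entry and were counted as not thresholded there. The 5 thresholded members of lowest signal, at K02A4.t1, F09B9.t1, T10B10.t1, ZK154.t3 and T03G6.t1, had signals of 20.2 to 28.6 and each lay beside a stronger entry of the same gene or pair. In this sense they are shoulders of stronger regions. At F09B9.t1, an arginine gene, the stronger entry had a signal of 85.8 and the weaker one 21.1, with summits 59 and 258 bp past the start and inside the same thresholded region.

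Most members were found in both replicates. An entry of each replicate list overlapped 211 members (89.4%, 84.8 to 93), against 44.1% of all pooled entries, 40.4% of the other X chromosome entries and 88.8% of entries beside autosomal tRNA genes. Requiring 50% reciprocal overlap with the replicate entries left 189 members, and requiring the summit inside a replicate entry left 192. The overlap was counted from 1 shared bp with the strongest entry. Neighbouring members could therefore share a replicate entry, as at K11E4.t5 and K11E4.t6, also in the correlations below. Replicate 3 alone held 19 members, replicate 4 alone held 5, and 1 member was in neither list. Of the 163 members without a thresholded region, 138 were in both lists. Signal in the members had a Spearman rho of 0.641 between replicates and a Pearson r of 0.619 on log10 values, over 211 members that share their libraries. The same values were 0.636 and 0.619 beside autosomal tRNA genes, and 0.171 and 0.249 over the other X chromosome entries. These describe the order of regions and carry no test.

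**Figure D2:**
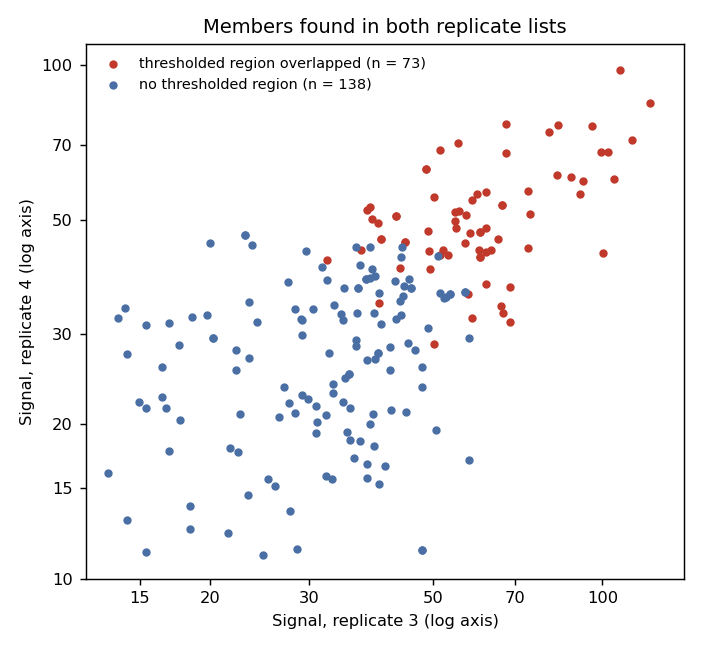
Signal of the 211 members found in both lists in replicate 3 (horizontal log axis) and replicate 4 (vertical log axis), in the authors' units of each list. Thresholded members lie at the upper right of both axes, and the rank correlation over all points is 0.641.

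The strongest member lay between a glycine and a glutamate gene that are transcribed away from each other, M02F4.t1 and M02F4.t2. Its signal was 205 in the pooled list, 108 in replicate 3 and 98.0 in replicate 4, where it ranked 19 and 16 among 30000 entries. The 116 bp between the genes are written here along the plus strand (X:3036048-3036163), with the summit base in capitals, because they hold the summit 21 bp before the start of M02F4.t1 and 96 bp before that of M02F4.t2.
M02F4.t2 to M02F4.t1: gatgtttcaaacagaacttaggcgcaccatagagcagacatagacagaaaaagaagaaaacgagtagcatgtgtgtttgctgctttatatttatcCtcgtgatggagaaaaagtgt

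The next member had in its window both alanine genes printed above, F15G9.t1 and F15G9.t2, which follow each other on the same strand inside an intron of him-4, the gene of the matrix protein hemicentin. Its pooled signal was also 205, with 121 in replicate 3 and 84.3 in replicate 4. The summit lay between the genes, 99 bp past the start of F15G9.t1 and 59 bp before that of F15G9.t2. The leucine gene C04A11.t1 had a signal of 178, with 113 in replicate 3 and 71.5 in replicate 4, and its summit lay 37 bp into the gene. This gene of 119 bp has an annotated intron and no identical copy in the nuclear genome.

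Glutamate, asparagine, proline, serine, tyrosine and alanine genes followed. C28G1.t1 (Glu, signal 167), which overlaps an exon of its host gene C28G1.2, F41D9.t3 (Asn, 167), which lies in an intron of sulp-3 on the opposite strand, and C02B4.t2 (Tyr, 164), in an intron of nhr-17 on the opposite strand, each had a summit 20 to 24 bp before the start. F46G11.t2 (Pro, 166) and C53C7.t1 (Ser, 164) are each 1 of a divergent pair, and their summits lay between the genes, 53 and 42 bp before the start of the named gene. R11.t1 (Tyr, 158) and T07H6.t2 (Ala, 152) had theirs 10 bp and 1 bp into the gene. All 10 strongest members were thresholded on both builds and stood among the 106 strongest entries of each replicate.

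Summits sat near the start of the gene. Over the 236 members the median summit lay 15 bp past the start of the nearest tRNA gene, with quartiles at 16 bp before and 46 bp past it. A 95% interval of the median, from the ordered positions of members taken as independent, ran from 9 to 27 bp. It does not measure the spread between replicates. With members taken from replicate 4's list alone the median was 29.5 bp, outside that interval, and from replicate 3's list 12 bp. For scale, the median X chromosome tRNA gene is 72 bp long. By place, 80 summits were upstream, 115 inside and 41 downstream of the gene, and 163 (69.1%) lay within 50 bp of the start. The 68 members with a summit in a thresholded region had a median of 8 bp, and members without an overlap 16 bp. Beside autosomal tRNA genes the median was 14 bp.

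Part of the weak members were secondary entries of a gene. Among the 59 members of highest signal 83.1% lay within 50 bp of the start, and among the 59 of lowest signal 55.9% did. Of the latter, 18 shared a tRNA gene with a stronger member, and over the other 41 the share was 73.2%, a split made after the values were seen. Where the window held 2 or more tRNA genes (30 members), 18 summits were upstream of the nearest gene and the median was 17.5 bp before the start. Where it held 1 gene (206 members) the median was 17 bp past the start. Among thresholded members the farthest upstream were ZK154.t3 at 75 bp before the start, F46G11.t2 at 53 bp and C53C7.t1 at 42 bp, all with a neighbouring tRNA gene in the window. The farthest downstream, at F09B9.t1, C52G5.t1 and T03G6.t1, lay 192 to 258 bp past the start and had signals of 21.1 to 32.5. At the edge of the window, the outermost members were 183 to 186 bp from their gene, and the nearest entries outside lay 205 bp from T04F8.t1 and 239 bp from F38E9.t1, with signals of 24.4 and 22.4.

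**Figure D3:**
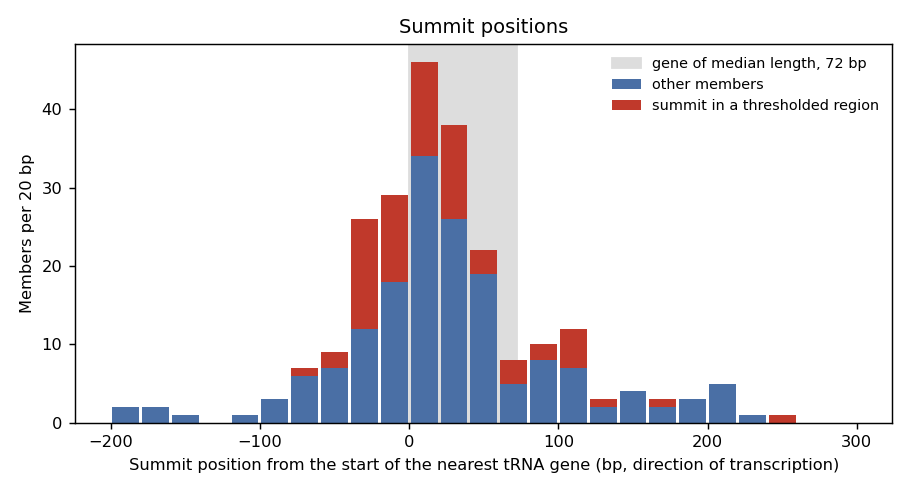
Number of members per 20 bp (vertical axis) by summit position from the start of the nearest tRNA gene in the direction of transcription (horizontal axis, bp). The grey band is a gene of the median length of 72 bp, and 163 of the 236 summits lie within 50 bp of the start.

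Seen by gene, nearly all X chromosome tRNA genes had a candidate region and fewer than 1 in 3 had a thresholded one. Of 276 annotated genes, 245 (88.8%, 84.4 to 92.2) had a member in their window and 78 (28.3%, 23.0 to 34.0) had a thresholded member. Of 336 autosomal tRNA genes, 250 (74.4%, 69.4 to 79.0) had a candidate region and 56 (16.7%, 12.8 to 21.1) a thresholded one. Neither pair of intervals overlapped, but neighbouring genes can share 1 region and are not independent. Counted by region, the thresholded intervals did overlap, 25.1% to 37.3% on X and 16.2% to 26.7% on autosomes. Taken 1 by 1, the autosomes differed: candidate shares were 57.7% on IV and 68.2% on I, against 79.7% on III, 83.3% on V and 84.2% on II, and the intervals of the last 3 overlap that of X. The intervals of the thresholded shares on II, III, IV and V, which ran from 17.2% to 19.7%, also overlap that of X. The strongest region per gene had a median signal of 66.7 on X and 59.7 on autosomes. The worms were of mixed sex, and dosage of the X chromosome was not analysed here.

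The 31 genes without a candidate region were spread over the chromosome and over isotypes. Histidine genes were the least covered, with a candidate region at 5 of 9, while all 14 valine, 20 proline and 12 aspartate genes had one. All histidine genes without a candidate region stand in the same cluster, F28H6, so their low share comes from 1 place. Of the 57 genes in clusters of 3 or more, 14 had none, against 11 of 141 lone genes. Genes whose sequence occurs once in the nuclear genome had a candidate region at 46 of 57 (80.7%) and a thresholded one at 9 (15.8%), and genes with identical copies on X had one at 184 of 203 (90.6%) and a thresholded one at 62 (30.5%). From 3 to 6 Mb all 27 genes had a candidate region.

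Every one of the 20 amino acid isotypes had at least 1 X chromosome gene with a thresholded region, and the 3 genes with no isotype given had none. Alanine genes had the highest share, 8 of 13, followed by valine with 6 of 14 and glycine with 8 of 20. With the summit required inside the thresholded region, the counts were 7, 6 and 8. The alanine genes F15G9.t1 and F15G9.t2 are counted through the same region. Other isotypes hold such genes too, among them the proline genes F46G11.t1 and F46G11.t2 and the glycine genes T10B10.t1 and T10B10.t2. The place of glycine held on this list only, since among thresholded regions at or above their median signal 1 of 20 glycine genes was left, and on ce10 leucine (9 of 17), lysine (9 of 18) and threonine (7 of 14) stood above its 8 of 20. Alanine had the highest share in those settings too, with 5 of 13 and 10 of 13. Arginine genes had the lowest share of an amino acid isotype on ce11 (2 of 27) and on ce10 (5 of 27), although 22 of the 27 had a candidate region, and cysteine, glutamine and phenylalanine genes had none among the stronger thresholded regions. On autosomes the order differed, with 5 of 17 arginine genes, 6 of 21 alanine genes and 3 of 35 glycine genes thresholded. Most isotypes have few genes and many of these are identical copies, so their order is a description.

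The strongest gene of each isotype spanned signals from 85.1 to 205. Alanine, glycine and glutamate reached 205, as given above. Lysine at C33G3.t2 reached 150, valine at R04D3.t2 128, threonine at T25B6.t2 124 and isoleucine at C02B4.t1 116. Methionine at C02F12.t1 reached 112, tryptophan at sup-7 111 and aspartate at F38G1.t2 109. The gene sup-7 is known in worm genetics as the locus of amber suppressor mutations in a tryptophan tRNA, and its summit lay 17 bp before the start. Phenylalanine at T28B4.t1 reached 103, arginine at C18A11.t2 101, glutamine at H35N09.t2 101, histidine at C06G1.t1 90.2 and cysteine at F12D9.t1 85.1. The strongest member whose nearest gene has no isotype given, at F47E1.t3, had a signal of 24.9.

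**Figure D4:**
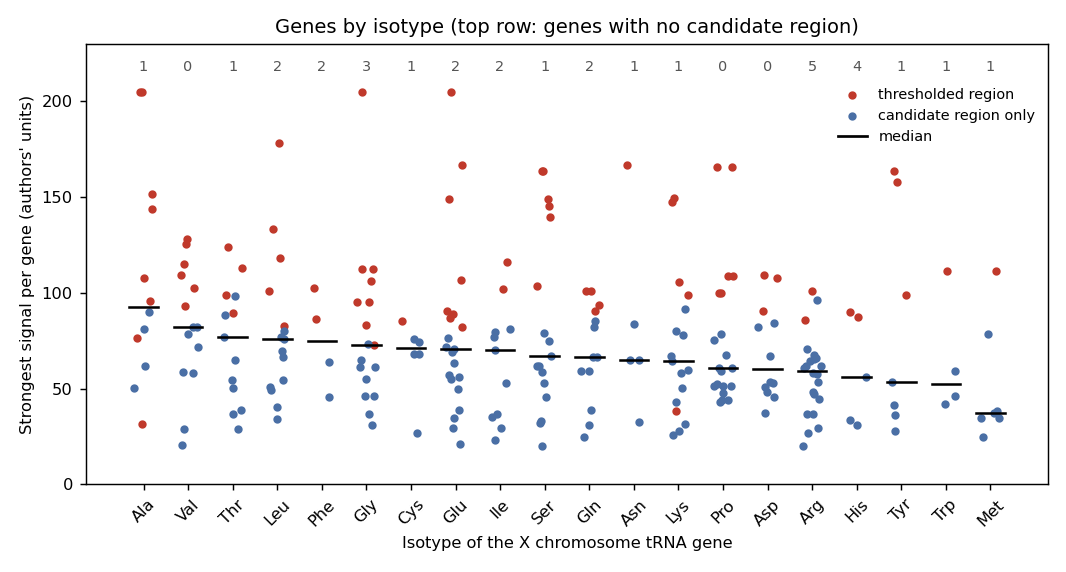
Signal of the strongest member per X chromosome tRNA gene (vertical axis, authors' units) by isotype (horizontal axis), with the median of genes that have a member as a line and the number of genes without one at the top. Alanine genes have the highest median, 92.8, and methionine genes the lowest, 37.1.

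The share of thresholded genes was 25.2% among clustered genes and 31.2% among lone ones. With gaps of at most 1000 bp, 135 genes formed 54 clusters and 141 stood alone. These shares rest on 34 clustered genes (interval 18.1% to 33.4%) and 44 lone genes (23.7% to 39.5%), and the intervals overlap. Genes in pairs had 25 of 78 (32.1%, 21.9 to 43.6) and genes in clusters of 3 or more had 9 of 57 (15.8%, 7.48 to 27.9).

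The largest clusters held few thresholded regions. The 6 genes F22F1.t2 to F22F1.t7, for serine, aspartate, methionine and isoleucine, had none, with a strongest signal of 79.7. The 6 histidine genes of F28H6 had a candidate region at 2 genes, none thresholded and a strongest signal of 33.5. The 5 genes of K01A12, for arginine and cysteine, had none thresholded and a strongest signal of 68.1, and the 5 glutamine genes of H08J11 had 1 with a signal of 90.7. Among the 39 pairs, arrangement varied. A thresholded region was found at 9 of 17 pairs transcribed away from each other, 3 of 6 transcribed towards each other and 3 of 16 in the same direction, with median strongest signals of 90.4, 92.9 and 58.9. Most pairs transcribed away from each other stand closer together than most pairs in the same direction. Spacing was not separated from arrangement, and these small counts carry no intervals.

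By the gene that contains the tRNA gene, the intervals overlap. Genes with no protein-coding host had 53 of 180 thresholded (29.4%, 22.9 to 36.7), genes in an intron on the opposite strand 14 of 45 (31.1%, 18.2 to 46.6) and genes in an intron on the same strand 10 of 50 (20%, 10 to 33.7). Along the chromosome the share was highest from 3 to 6 Mb, with 13 of 27 genes (48.1%, 28.7 to 68.1), and lowest from 15 to 18 Mb, with 9 of 49 (18.4%, 8.76 to 32).

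The share of thresholded genes was similar with and without a match to the fixed letters searched for in the gene. Each gene was searched at any position, read in the direction of transcription only. The B box core GTTCNANNC was found in 268 of the 276 genes, and 28.4% of these were thresholded. Of the 8 genes without these letters 2 were, too few genes for a comparison. The A box core GCNNAGNNG was found in 116 genes, of which 29.3% were thresholded, against 27.5% of the 160 without these letters. A gene without a match is not shown to lack the box, and promoter strength was not tested. A run of TTTT within 50 bp past the end was found at 273 genes. Windows of 101 bp around the summit were searched on both strands. The B box core was present in 41.9% of members and 4.98% of all pooled entries, and the A box core in 36.4% and 12.1%. Members were chosen for lying beside tRNA genes, which hold these boxes, so the excess over all pooled entries follows from that choice. Beside autosomal tRNA genes the shares were 41.4% and 36.3%. Members with a summit in a thresholded region had 36.8% and 41.2%, and members without an overlap 45.4% and 35.6%. A shorter pattern, TATA within 50 bp before the start, was found at 16 of 78 thresholded genes (20.5%). It was found at 34 of 167 genes with a candidate region only (20.4%) and 3 of 31 with none (9.68%). The share was 19.2% over all X chromosome tRNA genes and 16.7% over all autosomal ones. In the 50 bp before every pooled summit it was 11.7%, but that window was read along the plus strand and not from a gene start.

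Base composition before the gene differed between the classes. The 50 bp upstream had a median GC content of 44.0% (quartiles 40.0 to 51.5) at the 78 thresholded genes, 38.0% (33.0 to 44.0) at the 167 genes with a candidate region only and 36% (31.0 to 42.0) at the 31 genes with none. On autosomes the same medians were 46.0%, 45% and 42.0%. Over the 245 X chromosome genes with a candidate region, GC content and signal had a Spearman rho of 0.286, with genes that share regions and sequence among them. Within the 13 sets of identical genes with at least 6 such members rho ran from -0.328 in the cysteine set (6 genes) to 0.829 in a threonine set (6 genes). The part of base composition in the signal was not tested.

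Identical gene copies differed widely in signal. The 276 genes have 106 distinct sequences, and 33 of these occur in 2 or more X chromosome copies, 203 genes in all. In 28 of the 33 sets some copies were thresholded and others were not, in 1 set of 3 alanine copies (F15G9.t1, T07H6.t2 and T07H6.t1, with signals of 205, 152 and 108) all were, and in 4 sets none was. Reads inside such a gene cannot be placed by sequence alone. Of the 276 gene bodies, 246 had fewer than 50% of their 36-base words found once in the nuclear genome. In the 201 bp around the members' summits, the median share of such words was 73.5% (lowest 56.0%), and 72.9% around summits in a thresholded region. The labels and notes say neither how long the reads were nor how reads with several matches were treated, and their part in the differences between copies was not tested.

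**Figure D5:**
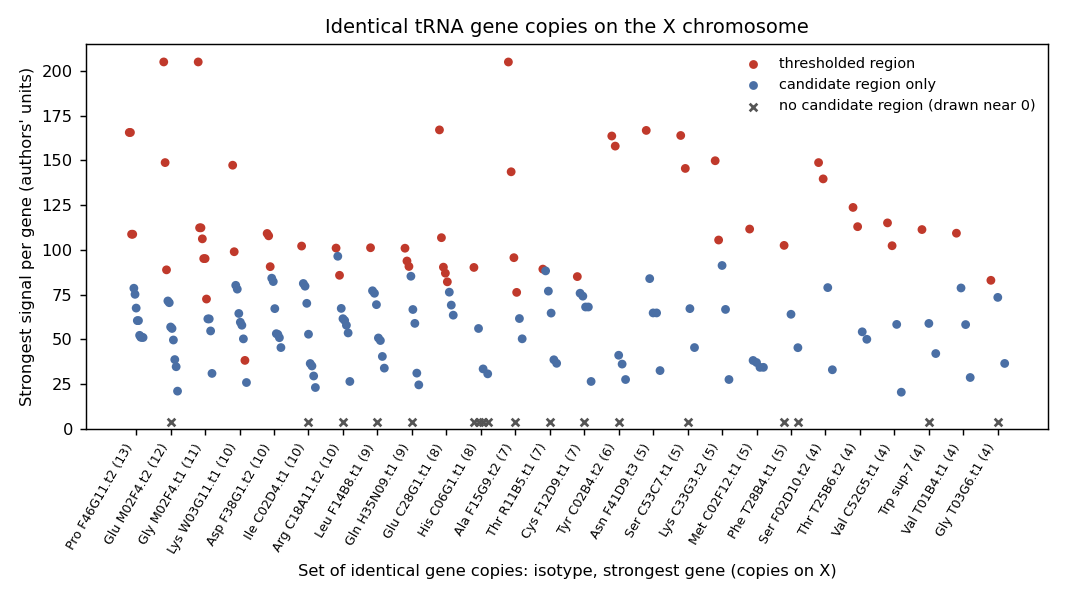
Signal of the strongest member per gene (vertical axis, authors' units) for each set of at least 4 identical X chromosome tRNA genes (horizontal axis, strongest gene and number of copies), with crosses for genes without a member. Tyrosine copies run from 164 to 27.6 with 1 copy that has no member.

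Among the sets found on the X chromosome alone, a tyrosine, an arginine and a valine set were chosen after their values were seen, and their values are no independent support for the relation to GC content above. The tyrosine sequence printed above is shared by 6 genes. C02B4.t2 had a signal of 164, with 83.4 in replicate 3 and 76.5 in replicate 4, and R11.t1 had 158, with 80.2 and 74.2. F56F10.t1 had 41.2 and R11.t4 36.2, both found in replicate 3 only, R11.t3 had 27.6 with 18.4 and 13.9, and R11.t2 had no candidate region. Both high copies were thresholded and the other 4 genes were not. R11.t1 to R11.t4 stand in the same direction within 1590 bp, so the strong copy R11.t1 has R11.t2, R11.t3 and R11.t4 as neighbours. C02B4.t2 and F56F10.t1 stand alone elsewhere on the chromosome. The 50 bp before each gene, written towards the gene with G and C in capitals, show where the copies stop being alike.
C02B4.t2: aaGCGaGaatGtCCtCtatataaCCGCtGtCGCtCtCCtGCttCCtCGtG
R11.t1: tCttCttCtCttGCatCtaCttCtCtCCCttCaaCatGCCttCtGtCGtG
F56F10.t1: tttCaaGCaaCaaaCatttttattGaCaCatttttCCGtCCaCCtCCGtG
R11.t4: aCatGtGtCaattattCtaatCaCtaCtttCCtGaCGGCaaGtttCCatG
R11.t3: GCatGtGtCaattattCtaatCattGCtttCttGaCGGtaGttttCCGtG
R11.t2: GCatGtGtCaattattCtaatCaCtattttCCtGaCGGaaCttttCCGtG
GC content was 52.0% at C02B4.t2, 46.0% at R11.t1 and 38.0% at each of the other 4. R11.t2, R11.t3 and R11.t4 had 42 to 44 of the 50 bases in common, compared position by position, whereas R11.t1 shared 18 or 19 with each of them and 13 with C02B4.t2.

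The arginine sequence printed above is shared by 10 genes. Its strongest copy, C18A11.t2, had a signal of 101, with 50.1 in replicate 3 and 55.3 in replicate 4, and was thresholded together with F09B9.t1 at 85.8. C03A3.t1 had 96.4, with 51.0 and 42.5, and was thresholded on ce10 only. The copies C14F11.t1, F09B9.t2, T06H11.t2, T01C1.t1 and F12D9.t4 lay between 53.6 and 67.3. K01A12.t3 had 26.5, with 22.4 and 17.7, and T06H11.t3 had no candidate region. The upstream sequences of the strongest copy and of the lowest 2 are given in the same way.
C18A11.t2: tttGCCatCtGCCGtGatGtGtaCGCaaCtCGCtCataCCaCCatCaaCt
K01A12.t3: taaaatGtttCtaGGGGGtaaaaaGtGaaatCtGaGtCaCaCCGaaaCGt
T06H11.t3: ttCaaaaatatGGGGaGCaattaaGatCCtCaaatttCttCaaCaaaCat
Their GC content was 50%, 38.0% and 30%, and over the 9 copies with a candidate region rho between GC content and signal was 0.8. The leucine set of F14B8.t1, also found on the X chromosome alone, had a rho of 0 over 8 copies with a candidate region. There the strongest copy, F14B8.t1, had a signal of 101 with 32% GC before it, and D1009.t2 had 69.4 with 12%.

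A valine sequence is shared by 4 genes, T01B4.t1 to T01B4.t4, which follow each other in the same direction over 2321 bp. Their signals were 109 at T01B4.t1, 58.3 at T01B4.t2, 28.7 at T01B4.t3 and 78.7 at T01B4.t4. T01B4.t1 alone was thresholded, with 63.3 in replicate 3 and 43.6 in replicate 4. T01B4.t4 had 57.9 in replicate 3 and 17.0 in replicate 4, where it stood below T01B4.t2 at 31.9, and T01B4.t3 was found in replicate 3 only. The gene and the 50 bp before each copy are shown because here the copies stand side by side.
T01B4.t1 (Val, X:16298341-16298413, plus strand): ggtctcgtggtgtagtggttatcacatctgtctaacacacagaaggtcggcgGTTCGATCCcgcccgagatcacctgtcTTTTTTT
T01B4.t1 upstream: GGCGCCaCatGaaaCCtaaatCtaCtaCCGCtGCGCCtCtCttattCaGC
T01B4.t2 upstream: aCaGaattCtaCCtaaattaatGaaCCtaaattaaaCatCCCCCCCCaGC
T01B4.t3 upstream: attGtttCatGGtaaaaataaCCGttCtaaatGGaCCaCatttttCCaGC
T01B4.t4 upstream: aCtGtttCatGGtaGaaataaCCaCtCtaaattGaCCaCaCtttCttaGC
GC content was 52.0% before T01B4.t1 and 34.0% to 38.0% before the others. T01B4.t3 and T01B4.t4 shared 41 of 50 bases.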

How the data were processed

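Regions came from lists that the authors deposited on build ce11, with 1-based coordinates printed here. Per the deposited notes, each replicate list and the pooled list hold peaks and background regions used as input to the IDR procedure, and the pooled list used a control alignment. The signal is the authors' own caller value, with scaling not stated, and was compared only within a list. For aligner, peak caller and read length, no value is given in the sources used. Read depth is unknown, and control libraries were not analysed here.

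tRNA genes, their hosts and exons came from the WBcel235 annotation (Ensembl release 115), and isotypes and gene names from RefSeq. Shares carry exact 95% binomial intervals (SciPy 1.17.1, pandas 2.3.3, NumPy 2.4.6, Python 3.11.15), and overlap, windows and clustering were tested on simulated data. Pooled ce11 entries were matched to ce10 by order and by signal within 0.1%, which 233 of the 236 members allowed, and no coordinates were carried over.

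Genes named are the 10 strongest members, the strongest of each isotype, the 5 strongest without and the 5 weakest with a thresholded region, the largest clusters, and the 3 thresholded summits farthest to each side. The sets of identical copies, the TATA pattern and the shown sequences were chosen after their values were seen. Members and lists were chosen with earlier results of these data known. With 1 group of 2 replicates, no test between samples was made, and the labels call these biological replicates, each from its own biosample.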

Additional observations from a re-analysis of the deposited data

How the results depend on the processing

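No paired analysis was possible because the labels give 1 group. Of 51 alternative values, 42 stayed within a set limit of the reported one (a count within 1.5 times, a share or median within its interval). Keeping only thresholded regions at or above their median signal left 38 members and 41 genes, and 13.3% of clustered and 16.3% of lone genes, by construction. With members taken from 1 replicate's list, the median signal was 32 to 36.5, on that list's own scale, and the median summit position 12 to 29.5 bp past the start, the latter without replicate 3; the cause was not tested. The counts of members were then 218 to 235, of thresholded members 72 to 75 and of thresholded genes 78 to 80. The thresholded list, made from both replicates, stayed the same in these settings. The thresholded counts therefore cannot show what leaving out a replicate would change. The ce10 lists were an alternative chosen after seeing the data. There 46.8% of lone and 33.3% of clustered genes were thresholded. In all, 109 members and 111 genes were, against 73 and 78 on ce11. Both counts are among the 42 because the limit of 1.5 times is wide. As a share of members, the 46.2% on ce10 lay above the ce11 interval of 25.1% to 37.3%. The thresholded list on ce10 is longer, and the part of its length in these values was not tested. Limiting genes to sequences found once on X left 10 isotypes with a thresholded region in place of 20, with fewer genes counted. Unknown depth and an unstated signal scale limit every value, and a region absent from a list of fixed length is not shown to be unbound.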
